A study of Mus musculus with 6 samples.

Results

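The genes described here act in meiotic prophase, when homologous chromosomes pair, recombine and separate. A list of 35 symbols of chromosome axis, synaptonemal complex, meiotic cohesin, break formation, strand exchange and crossover genes was matched to the gene name column of the deposited count table. It found 32 of the 26743 genes in that table, and all 32 had enough reads to be tested. They lie on 15 chromosomes, with Tex11 on the X. The measurements came from RNA-seq of whole testes of 3 WT and 3 Trf2-/- male mice at 21 days of age. Trf2 (gene symbol Tbpl1) encodes a relative of the TATA-binding protein, and the Trf2-/- mice carry an inactivated allele on both chromosomes. The study's methods give a 129/SvPas background where they describe its tagged Trf2 line and do not give the background of the mice sequenced here separately. No other allele or treatment was named for either group. At this age the first wave of spermatogenesis has just produced round spermatids, and the comparison asks how germ cell RNA differs before the mutant loses its later spermatids. Total RNA was depleted of ribosomal RNA and sequenced as single-end reads of 50 bases.

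In meiotic prophase, SPO11 cuts DNA at sites marked by PRDM9, and the recombinase DMC1 helps to pair the resulting ends with the homologous chromosome. Chromosomes meanwhile fold along a protein axis built on meiotic cohesin, and the axes of homologues are joined by the synaptonemal complex, a zipper with lateral elements, transverse filaments and a central element. MutS and MutL homologues then turn some of the joined sites into crossovers, which hold homologues together until the first division. Much of this machinery is made chiefly in germ cells, and most of its genes are switched on around meiotic entry, before the late pachytene and haploid programs.

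Each WT library held 21582123 to 29859347 reads on genes, and each Trf2-/- library 15187062 to 24530489. Expression is given as CPM, counts per 1000000 counts in a library after scaling by TMM, a factor set by the bulk of the genes, and 3 counts correspond to 0.105 to 0.190 CPM in these libraries. The inactivated gene was checked first. Tbpl1 was at 308, 283 and 294 CPM in WT mice 1 to 3 and at 62.9, 64.3 and 55.8 CPM in Trf2-/- mice 1 to 3. The mutant mean was 20.7% of the WT mean, and the genotypes did not overlap. Trf2-/- mouse 3 had the smallest library and stood somewhat apart. Relative to the WT mean, the members had a median log2 ratio of 0.19 in this mouse against 0.05 and 0.03 in Trf2-/- mice 1 and 2, while the median over all tested genes was 0.04, 0.01 and 0.00. Marker lists placed the samples as testis with germ cells. The 10 round spermatid markers found summed to 76.1 to 79.1 CPM in WT, with Acr alone at 54.5, 54.7 and 59.7 CPM. Single round and elongating spermatid markers overlapped in level, with WT means of 1.29 CPM for Acrv1 (round) and 2.37 CPM for Odf1 (elongating). The lists therefore do not set the latest germ cell stage. Elongating spermatid markers were low in WT too, where their summed level was 6.86 to 8.58 CPM. Of the 8 found, 4 had enough reads to be tested, and Prm2 and Prm3 were at no more than 3 counts in every mouse.

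The meiotic genes moved little in the Trf2-/- testis, and in both directions. The central element gene Syce1, the cohesin protector Sgol2, the break formation gene Mei1 and the strand exchange cofactor Psmc3ip were lower. The transverse filament gene Sycp1, the axis genes Sycp3 and Hormad1, the central element gene Tex12 and the crossover gene Msh4 were higher. The fold changes of the 32 members spanned -0.46 to 0.36 on the log2 scale, from 72.6% of the WT mean for Syce1 to 128% for Msh4. None of the members changed by 2-fold, and the calls of Mei1, Psmc3ip, Hormad1 and Tex12 were lost under some alternative settings. In whole testis, fewer cells of a type and less RNA per cell cannot be told apart, and this holds for every difference below.

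With edgeR's quasi-likelihood test and an adjusted p under 0.05 over all 16924 tested genes, 4 members (12.5%) were lower, where the background was 20.2% of all tested genes. Another 5 members (15.6%) were higher, where the background was 11.2%, and 23 did not pass. The share lower was under its background and the share higher above it, and no test was made of either gap. With a 2-fold limit added, edgeR called 0 members, and DESeq2 also called 0. The backgrounds at 2-fold were 4.30% lower and 0.609% higher. At an unadjusted p under 0.05, 6 members were lower and 10 higher, and 0 of these were changed by 2-fold. Of all 16924 tested genes, 7333 passed this unadjusted limit in either direction, a share close to that of the members. The median log2 fold change of the members was 0.11, with quartiles of 0.00 and 0.21, against a median of 0.04 and quartiles of -0.21 and 0.21 over all tested genes. The standard errors of the members' fold changes had a median of 0.07 on the log2 scale and ran from 0.04 to 0.19. The 95% interval of every member lay inside a 2-fold change in either direction, and 30 of the 32 lay inside 1.5-fold. The bounds nearest to 2-fold were -0.61 for Syce1 and 0.64 for Mei4. By the values of single mice, all 3 Trf2-/- values were under all 3 WT values in 6 members and above them in 13, where the backgrounds were 26.8% and 22.3% of tested genes.

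**Figure D1:**
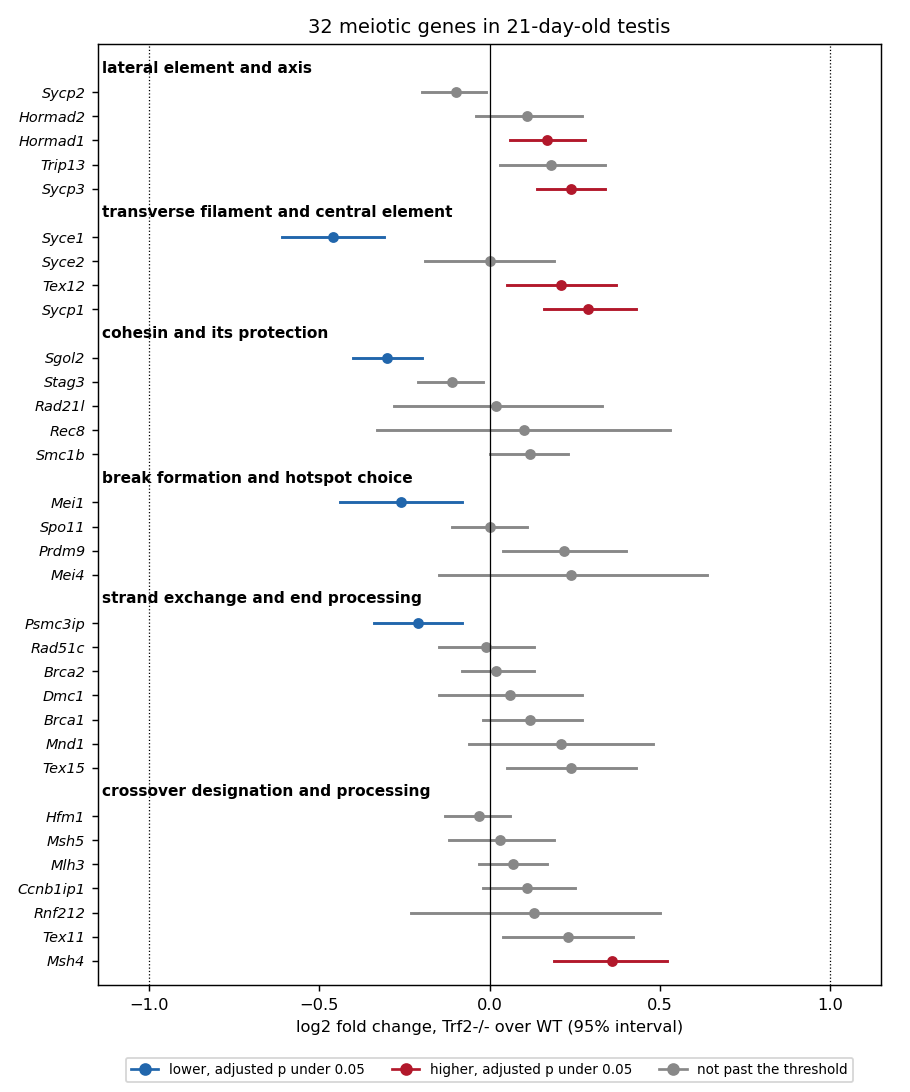
The log2 fold change of each of the 32 members, Trf2-/- over WT, with its 95% interval from the edgeR fit, grouped by role. Blue marks the 4 members that were lower and red the 5 that were higher at an adjusted p under 0.05, and every interval stays between the dotted lines at 2-fold.

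The number of members on each side depended on the scaling. The members took 0.595 to 0.609% of all counts on genes in WT mice and 0.642 to 0.667% in Trf2-/- mice, and the genotypes did not overlap. After TMM scaling their summed level was 6189 to 6259 CPM in WT and 6240 to 6401 CPM in Trf2-/-, and the genotypes overlapped. With the library size alone as the scale, 2 members were lower and 14 higher. The median log2 fold change was then 0.20 for the members and 0.13 for all tested genes. With TMM scaling and Trf2-/- mouse 3 left out, 3 members were lower and 4 higher, and the median was 0.05.

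The lateral elements and chromosome axis were represented by 5 genes, of which 2 rose, 0 fell and 3 did not pass. Their median log2 fold change was 0.17. Sycp3, whose protein forms the fibres of the lateral element, was at 492, 475 and 456 CPM in WT mice and at 563, 553 and 562 CPM in Trf2-/- mice. Every mutant value was above every WT value, and the mutant values differed from each other by less than the WT values did. The log2 fold change was 0.24 with a standard error of 0.04 and an adjusted p of 0.00426. Sycp3 lies at chr10:87922314-87935981 in the build NCBIM37 (mm9), and 660 bases of its exons overlap exons of Chpt1 on the opposite strand. For Chpt1 itself the log2 fold change was -0.13 (adjusted p = 0.0946), a sign opposite to that of Sycp3. Hormad1 encodes a HORMA domain protein of unsynapsed axes. It was at 288, 285 and 277 CPM in WT and at 332, 302 and 322 CPM in Trf2-/-, with no overlap. It rose by 0.17 on the log2 scale (SE 0.05, adjusted p = 0.0274), and the call was lost, with an adjusted p of 0.0618 to 0.130, when any of the 3 WT mice or Trf2-/- mouse 1 was left out.

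The other 3 axis genes did not pass. Sycp2, the partner of Sycp3 in the lateral element, had the most reads of all members. It was at 1285, 1285 and 1286 CPM in WT and at 1238, 1187 and 1167 CPM in Trf2-/-. The mutant values were all lower, by 6.88% of the WT mean, and the log2 fold change of -0.10 had an adjusted p of 0.0972. With library size alone as the scale, Sycp2 was at -0.01 (adjusted p = 0.885). Sycp2 and Sycp3 had values of opposite sign, and the difference between the 2 genes was not tested. Hormad2, the second HORMA domain gene, was at 56.9, 53.7 and 55.6 CPM against 59.8, 55.4 and 65.0 CPM, with overlap. Trip13 encodes the ATPase that takes HORMA domain proteins off the axis, and was at 27.1, 29.9 and 29.5 CPM against 31.3, 32.1 and 35.0 CPM (log2 fold change 0.18, adjusted p = 0.0736).

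The transverse filament and central element had 4 genes, and 3 of them changed, 1 down and 2 up. Syce1, a central element gene at chr7:147963128-147973753, had the largest decrease of all members in size. Its level was 345, 343 and 324 CPM in WT and 250, 264 and 220 CPM in Trf2-/-. The highest mutant value lay well under the lowest WT value, and the means were 337 ± 11.4 and 245 ± 22.0 CPM (SD, n = 3 each). This was a log2 fold change of -0.46 with a standard error of 0.07 and an adjusted p of 0.00132. Sycp1 encodes the transverse filament that bridges the axes, and lies at chr3:102622422-102740023. It was at 542, 525 and 567 CPM in WT and at 707, 617 and 679 CPM in Trf2-/-. Each mutant value exceeded each WT value, and the log2 fold change was 0.29 (SE 0.06, adjusted p = 0.00602).

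The remaining central element genes were Tex12 and Syce2, whose proteins form a filament together. Tex12 was at 38.7, 44.6 and 42.4 CPM in WT and at 51.0, 45.9 and 48.4 CPM in Trf2-/-. The genotypes were separated by a narrow gap, between 44.6 and 45.9 CPM. Its log2 fold change was 0.21 (SE 0.07), the adjusted p of 0.0496 was the nearest to the threshold among the called members, and 10 of 12 alternative settings put it past 0.05. Syce2 was at 57.7, 60.0 and 58.2 CPM in WT and at 52.7, 56.5 and 66.9 CPM in Trf2-/-. The WT mice lay inside the range of the mutants, and the log2 fold change was 0.00 with an interval of -0.19 to 0.19.

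**Figure D2:**
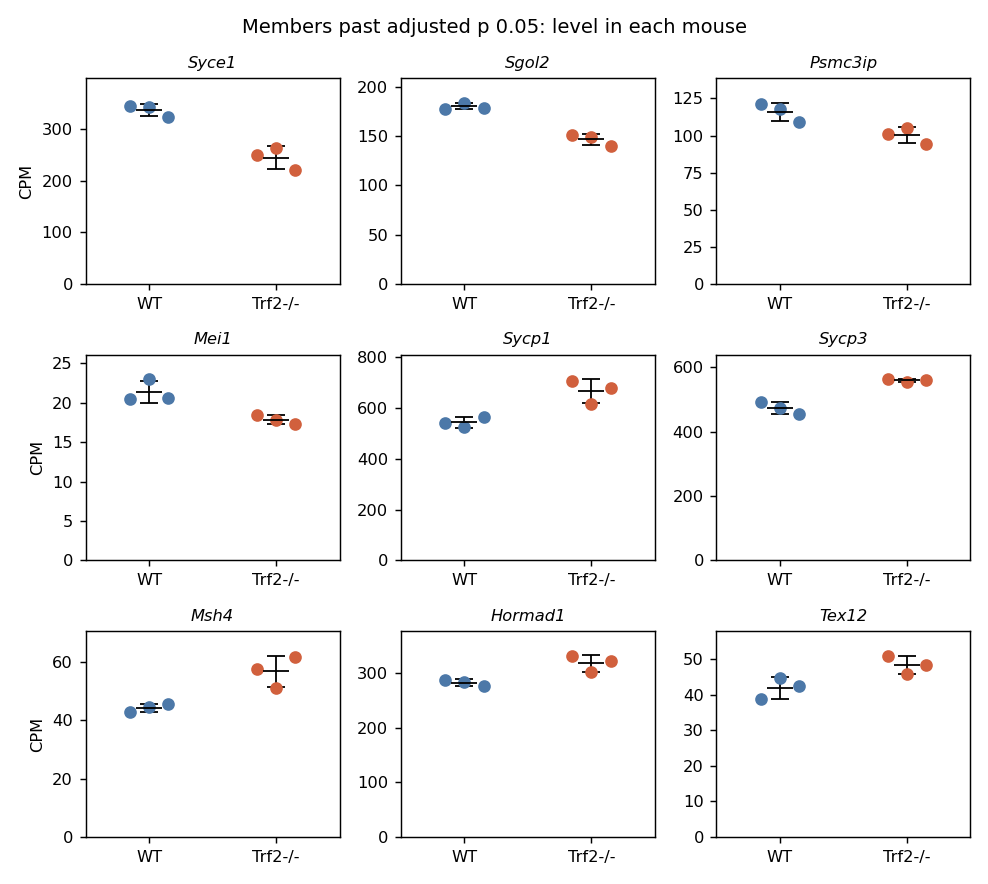
CPM (counts per 1000000 after TMM scaling) of the 9 members past an adjusted p of 0.05, with 1 point for each mouse and a bar for the mean and SD of 3 mice. Syce1 runs from 324 to 345 CPM in WT mice and from 220 to 264 CPM in Trf2-/- mice, and in all 9 genes the genotypes do not overlap, with the narrowest gap in Tex12.

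Meiotic cohesin and its protection had 5 genes, of which 1 fell. Sgol2 encodes shugoshin 2, which guards cohesin at centromeres through the first division. It was at 178, 184 and 179 CPM in WT and at 151, 149 and 140 CPM in Trf2-/-. All mutant values were lower, at 81.2% of the WT mean, and the log2 fold change was -0.30 (SE 0.05, adjusted p = 0.00172). Sgol2 lies at chr1:58052815-58082743, and 2455 of its exon bases overlap exons of Kctd18 on the opposite strand. The fold change of Kctd18 was -0.03 on the log2 scale (adjusted p = 0.725).

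The cohesin subunits themselves did not pass. Stag3 was at 819, 818 and 799 CPM against 740, 776 and 736 CPM, lower in all 3 mutants (log2 fold change -0.11, adjusted p = 0.0731). Without Trf2-/- mouse 2 it passed (-0.16, adjusted p = 0.0473), and with library size alone as the scale it was at -0.02 (adjusted p = 0.731). Smc1b was at 448, 467 and 453 CPM against 494, 469 and 522 CPM, higher in all 3 mutants (0.12 on the log2 scale, adjusted p = 0.105). With library size alone as the scale it passed (0.21, adjusted p = 0.0130). The kleisins, which close the cohesin ring, were the least certain. Rad21l was at 14.6, 17.8 and 13.4 CPM against 13.5, 15.9 and 17.5 CPM, with broad overlap. Rec8 was at 13.8, 14.9 and 13.4 CPM in WT but spread from 11.1 through 14.3 to 20.4 CPM in Trf2-/- mice 1 to 3. That spread gave the largest standard error of the members, 0.19, and the log2 fold change of 0.10 became -0.15 without Trf2-/- mouse 3.

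The mitotic counterparts of these subunits give a second view of cohesin. Smc1a, which SMC1B replaces in meiosis, was at 41.4, 42.9 and 46.2 CPM in WT and at 52.2, 52.4 and 55.5 CPM in Trf2-/-. It rose by 0.29 on the log2 scale (SE 0.06, adjusted p = 0.00687). Stag1 rose by 0.20 (adjusted p = 0.0136) and Stag2 by 0.16 (adjusted p = 0.0374), while Rad21 was at 0.12 and did not pass (adjusted p = 0.142). The call of Stag1 was lost without WT mouse 1 (adjusted p = 0.0590), and that of Stag2 in 9 of 12 alternative settings. Per kilobase of gene length, WT testis held 113 CPM of Smc1b against 9.27 of Smc1a, and 172 of Stag3 against 30.7 of Stag1 and 12.5 of Stag2. The order was the other way for the kleisins, with 30.9 CPM per kilobase of Rad21 against 9.26 of Rad21l and 6.43 of Rec8. These mitotic subunits are made by somatic cells of the testis as well. The summed level of 9 Sertoli cell markers was 1824 to 1942 CPM in WT and 2070 to 2244 CPM in Trf2-/-, and 4 of the 9 rose. Its part in the rise of Smc1a, Stag1 and Stag2 was not tested.

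Break formation and hotspot choice had 4 genes, of which 1 fell. Mei1, which is needed for breaks to form, was at 20.5, 23.0 and 20.6 CPM in WT and at 18.5, 17.8 and 17.3 CPM in Trf2-/-. The genotypes did not overlap, and the log2 fold change was -0.26 (SE 0.08, adjusted p = 0.0343). The call was lost in 9 of 12 alternative settings, among them the DESeq2 test and the omission of any 1 WT mouse. Spo11, the nuclease that makes the breaks, was at 117, 111 and 107 CPM in WT and at 109, 114 and 112 CPM in Trf2-/-. Its log2 fold change was 0.00 with an interval of -0.11 to 0.11. Prdm9, the histone methyltransferase that marks hotspots, was at 29.6, 32.1 and 31.3 CPM against 33.6, 34.4 and 40.4 CPM (0.22, adjusted p = 0.0684). Mei4, a partner of the break machinery and the rarest member, was at 3.38, 3.33 and 4.46 CPM against 4.09, 4.03 and 5.12 CPM. It rested on 81 to 103 counts per mouse, its interval ran from -0.15 to 0.64, and 186 of its exon bases overlap a long noncoding RNA gene on the opposite strand.

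Strand exchange and end processing had 7 genes, of which 1 fell. Psmc3ip encodes HOP2, which works with MND1 to help the cut strand invade the homologue. It was at 121, 118 and 109 CPM in WT and at 101, 105 and 94.6 CPM in Trf2-/-. The log2 fold change was -0.21 (SE 0.06, adjusted p = 0.0249). The call was lost without WT mouse 1, WT mouse 2 or Trf2-/- mouse 1, at adjusted p of 0.0647 to 0.0962. It was also lost with library size alone as the scale (-0.12, adjusted p = 0.131). Psmc3ip shares 385 exon bases with Mlx on the opposite strand, and the value for Mlx was 0.23 on the log2 scale (adjusted p = 0.187). Its partner Mnd1 was at 9.34, 9.00 and 7.53 CPM against 10.8, 9.18 and 9.99 CPM, a log2 difference of 0.21 (adjusted p = 0.213). The values of both partners had opposite signs, and their difference was not tested.

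The remaining strand exchange members did not pass. Dmc1, the meiotic recombinase, was at 51.4, 58.3 and 56.0 CPM in WT and at 51.0, 56.3 and 65.7 CPM in Trf2-/-, with an interval of -0.15 to 0.27 on the log2 scale. Brca2, which loads recombinase onto single-stranded DNA, was at 266, 269 and 277 CPM against 266, 274 and 285 CPM (0.02, interval -0.08 to 0.13). Rad51c was at 52.0, 48.7 and 45.8 CPM against 49.6, 47.9 and 48.5 CPM (-0.01, interval -0.15 to 0.13). Brca1, which acts in end processing and on the unsynapsed sex chromosomes, was at 81.3, 83.6 and 84.7 CPM against 85.3, 87.1 and 99.3 CPM. All its mutant values were higher, but the adjusted p was 0.179. Tex15, needed for recombinase loading, was at 292, 354 and 354 CPM against 361, 396 and 422 CPM. It had a log2 fold change of 0.24 (SE 0.08), and its adjusted p was 0.0598, and 0.0375 with DESeq2.

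Crossover designation and processing had 7 genes, of which 1 rose and 0 fell. Msh4, which pairs with MSH5 in a clamp on recombination intermediates, had the largest increase of the members. It lies at chr3:153520111-153569102. It was at 42.9, 44.6 and 45.5 CPM in WT and at 57.6, 51.2 and 61.6 CPM in Trf2-/-. All mutant values were higher, at 128% of the WT mean, and the log2 fold change was 0.36 (SE 0.07, adjusted p = 0.00635). Msh5 was at 42.1, 41.1 and 45.3 CPM against 43.1, 41.4 and 47.2 CPM, with a log2 fold change of 0.03 and an interval of -0.12 to 0.19. The interval of Msh4, 0.19 to 0.52, met that of its partner at its edge, and the difference between the genes was not tested.

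The other 5 crossover genes did not pass. Tex11, the X-linked member, was at 71.8, 77.4 and 77.8 CPM against 81.1, 84.7 and 102 CPM, higher in all 3 mutants (0.23, adjusted p = 0.0624). DESeq2 gave it an adjusted p of 0.0463. Mlh3, a subunit of the crossover endonuclease, was at 134, 134 and 135 CPM against 147, 139 and 138 CPM (0.07, adjusted p = 0.236). Ccnb1ip1, which encodes the ligase HEI10, was at 27.1, 27.5 and 26.7 CPM against 28.3, 29.9 and 29.7 CPM (0.11, adjusted p = 0.174). Both had all mutant values above all WT values, by 5.12% and 8.17% of the WT mean. Hfm1, a helicase, was at 217, 215 and 218 CPM against 210, 208 and 217 CPM (-0.03, interval -0.13 to 0.06). Rnf212, whose protein marks future crossovers, was at 4.08, 5.59 and 4.75 CPM against 5.71, 4.67 and 5.44 CPM, and its interval ran from -0.23 to 0.50. Its deposited gene length is 300 bases, a short model that bears on its level per kilobase.

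**Figure D3:**
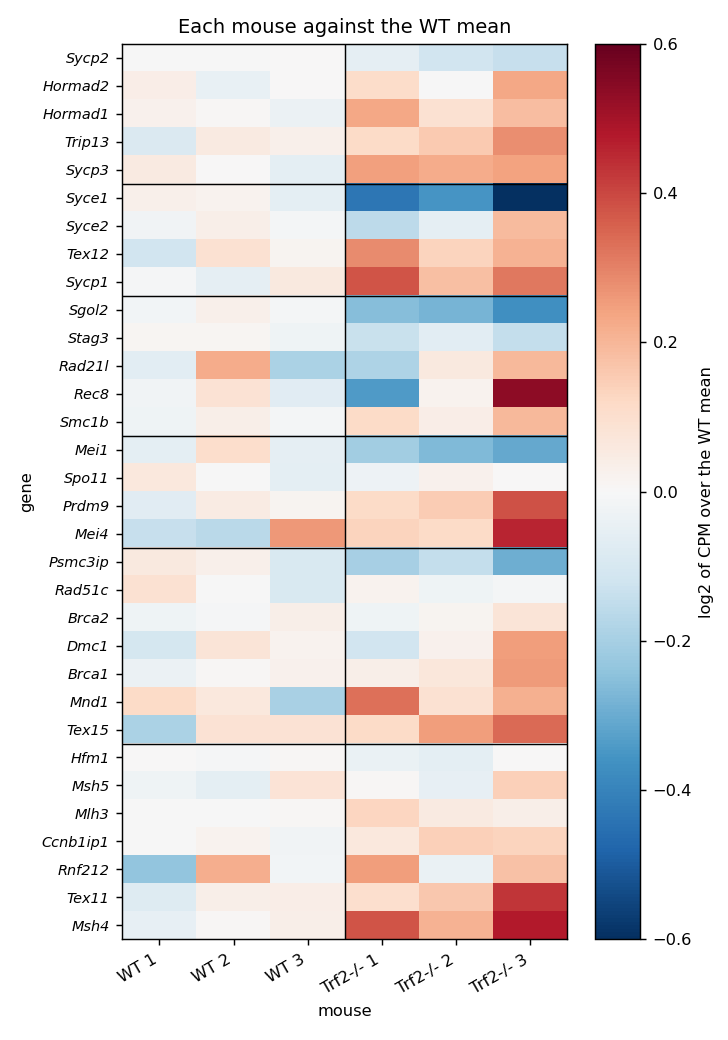
The log2 ratio of each mouse's CPM to the WT mean for the 32 members, in the role groups of the text, with blue below and red above the WT mean. Syce1, Sgol2, Mei1 and Psmc3ip are blue in all 3 Trf2-/- mice. Trf2-/- mouse 3 has the highest value of the 6 mice in 14 members, among them Rec8, a count not made over all tested genes.

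The difference between mutant mice was visible member by member. Trf2-/- mouse 3 held the highest value of all 6 mice in 14 of the 32 members, Trf2-/- mouse 1 in 7 and Trf2-/- mouse 2 in 1. The lowest value of all 6 mice fell in Trf2-/- mouse 3 for 6 members, and Syce1, Sgol2, Mei1 and Psmc3ip were among them. Such extremes were not counted over all tested genes, so these counts are not shown to be particular to the members. Of the 23 members that did not pass, 8 had all mutant values above all WT values, 2 had them below, and 13 overlapped. Over all 16924 tested genes, called or not, 22.3% lay above and 26.8% below in this way. The shares among all genes that did not pass were not computed, so the 8 and 2 have no matched background.

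The 9 members that changed ranged from abundant to rare, which is seen when levels are compared per kilobase of gene length. Sycp3 was the highest in WT at 416 ± 15.8 CPM per kilobase (SD, n = 3), followed by Syce1 at 231 ± 7.78 and Sycp2 at 224 ± 0.0916. The replicates of the latter pair overlapped, since WT mouse 3 had 222 CPM per kilobase of Syce1 and 224 of Sycp2. In Trf2-/- testis the order of that pair was clear of overlap, at 167 ± 15.0 for Syce1 and 209 ± 6.35 for Sycp2. Hormad1 (186), Stag3 (172), Sycp1 (157) and Smc1b (113) completed the 7 members above 100 CPM per kilobase in WT, which were all structural genes of the axis, cohesin or synaptonemal complex. At the other end, 8 members were under 10 CPM per kilobase, and Mei4 was the lowest at 0.812 ± 0.139. Recombination genes lay on both sides of that limit. Spo11 was at 62.7, Dmc1 at 25.0 and Msh4 at 10.8 CPM per kilobase, while Brca1 was at 9.82, Msh5 at 8.96 and Prdm9 at 7.74. The kleisins Rad21l (9.26) and Rec8 (6.43), which are structural, were also under 10. For some members the deposited length was shorter than the exon bases annotated in NCBIM37. It was 1782 against 3921 bases for Spo11 and 5741 against 5967 for Sycp2. These levels, and the close order of Syce1 and Sycp2 in WT, rest on the deposited length.

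**Figure D4:**
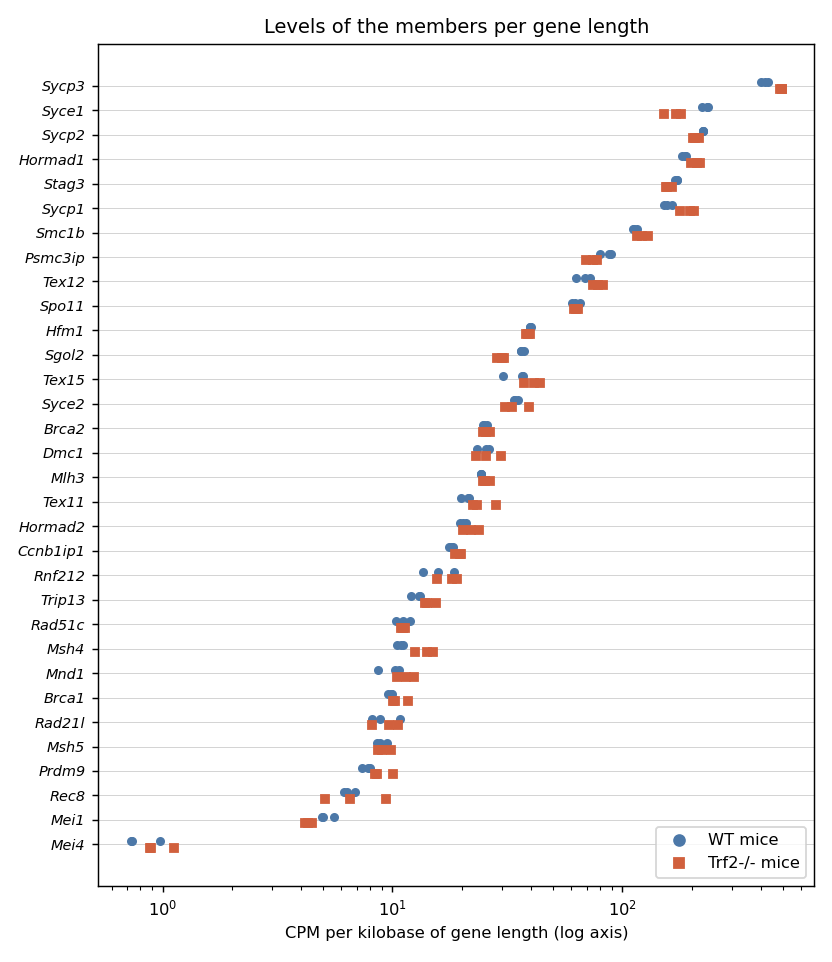
The level of each member in each mouse as CPM per kilobase of the deposited gene length, on a log axis, with WT mice as circles and Trf2-/- mice as squares. Sycp3 is highest in both genotypes and Mei4 lowest, and the genotypes lie close together compared with the span between genes.

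Upstream sequence is shown for 4 of the 5 members whose calls held in all alternative settings. The window of Msh4, the fifth, held none of the motifs and is not shown, since it lies inside the gene as annotated in NCBIM37, with its downstream edge 1247 bases from the annotated start. RefSeq windows of 250 bases before the annotated start (build GRCm38.p6) matched 29 of the 32 members, with Sgol2 entered as Sgo2a. Short motifs were searched on both strands in these windows, and a gene with several windows counted if any held the motif. The E2F motif GCGGGA was present in 15 of 29 members (51.7%), against 32.5% of 11156 tested genes with a window and 18.8% of all 27025 genes. The motif CCTCAG, bound by STRA8, was present in 11 members (37.9%), against 25.8% of tested genes. The MYB motif AACNGTT, the full CRE site TGACGTCA and the TATA motif TATAAA were each present in 2 members (6.9%), against 3.7%, 2.9% and 8.6% of tested genes. The E2F motif was in 2 of the 4 members that fell, in 3 of the 5 that rose and in 10 of the 20 matched members that did not pass. All these counts include windows far from the annotated start in NCBIM37. The only window of Mei1 lies 12480 bases from it, and that of Rnf212, which holds the E2F motif, 25579 bases. The TATA match of Sgol2 comes only from its far window, described below. A match is a description of letters, not a binding site. The windows of the members that fell most and of both filament genes that rose are given 5′ to 3′ with motif matches in capitals. Sgol2 lies on the plus strand (chr1:57995724-57995973), Syce1 on the minus strand (chr7:140787855-140788104), Sycp1 on the minus strand (chr3:102936101-102936350) and Sycp3 on the plus strand (chr10:88459337-88459586). In Sgol2 the capitals mark CCTCAG 207 to 202 bases upstream and the E2F motif on the reverse strand, read here as TCCCGC, 52 to 47 bases upstream. In Sycp1 they mark a match to AACNGTT 35 to 29 bases upstream, and in Sycp3 the E2F motif 147 to 142 bases upstream. The Syce1 window held none of the 5 motifs. Sgol2 had a further window starting farther upstream (chr1:57985090-57985339), which held TATAAA and is not shown, since it lies 10631 bases from the annotated start.
Syce1: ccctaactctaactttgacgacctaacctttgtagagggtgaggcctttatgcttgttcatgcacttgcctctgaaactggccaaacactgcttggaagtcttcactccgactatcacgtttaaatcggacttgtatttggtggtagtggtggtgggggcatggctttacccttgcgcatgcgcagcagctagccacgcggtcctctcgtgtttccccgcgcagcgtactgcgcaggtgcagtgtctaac
Sgol2: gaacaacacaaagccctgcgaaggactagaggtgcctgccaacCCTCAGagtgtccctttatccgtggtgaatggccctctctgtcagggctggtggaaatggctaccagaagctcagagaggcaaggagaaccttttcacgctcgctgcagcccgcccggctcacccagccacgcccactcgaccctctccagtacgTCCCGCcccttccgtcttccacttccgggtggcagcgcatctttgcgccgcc
Sycp1: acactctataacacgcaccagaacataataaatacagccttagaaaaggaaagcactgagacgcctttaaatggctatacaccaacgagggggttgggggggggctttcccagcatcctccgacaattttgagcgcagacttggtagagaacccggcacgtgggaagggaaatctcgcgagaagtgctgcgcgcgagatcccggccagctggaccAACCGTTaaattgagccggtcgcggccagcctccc
Sycp3: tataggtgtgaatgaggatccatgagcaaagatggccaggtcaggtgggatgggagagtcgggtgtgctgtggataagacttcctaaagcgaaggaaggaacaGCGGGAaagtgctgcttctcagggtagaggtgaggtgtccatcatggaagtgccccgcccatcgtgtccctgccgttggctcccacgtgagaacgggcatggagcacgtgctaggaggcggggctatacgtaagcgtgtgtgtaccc

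The list symbols Meiob, Meioc and Majin were not in the gene name column and are outside the 32. RefSeq synonyms linked each to a row under an older name. Meiob, a single-strand DNA binding protein of meiosis (listed as 4930528F23Rik), was at 94.5, 98.2 and 96.4 CPM in WT and at 116, 107 and 116 CPM in Trf2-/-. It rose by 0.23 on the log2 scale (SE 0.05, adjusted p = 0.00846). Meioc, which sustains the prophase program (listed as Gm1564), was at 584, 585 and 579 CPM against 543, 544 and 531 CPM, lower in all 3 mutants (-0.11, adjusted p = 0.0607). Majin, a telomere attachment gene (listed as 1700123I01Rik), was at 26.8, 27.2 and 28.7 CPM against 31.4, 30.1 and 31.8 CPM (0.18, adjusted p = 0.0535).

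Other genes of the same pathways were described from a list of 84 symbols, of which 77 were found and tested. Of these, 18 (23.4%) were lower and 11 (14.3%) higher, 0 were called at 2-fold by edgeR, and the median log2 fold change was 0.02. At an unadjusted p under 0.05, 36 of the 77 passed in either direction, a share near that of all tested genes (7333 of 16924). The shares at an adjusted p under 0.05 also lay close to the backgrounds of 20.2% and 11.2%. The lowest were Rpa1, Xrcc3 and Prr19. Rpa1, the large subunit of the protein that coats single-stranded DNA, was at 273, 262 and 275 CPM in WT and at 185, 191 and 152 CPM in Trf2-/- (-0.62, SE 0.08, adjusted p = 0.000890). Xrcc3, a gene of homologous recombination, was at 12.3, 11.0 and 9.93 CPM against 7.14, 6.86 and 7.84 CPM (-0.61, SE 0.12, adjusted p = 0.00474). Prr19, a crossover factor, was at 24.4, 24.1 and 27.3 CPM against 16.6, 17.8 and 15.5 CPM (-0.60, SE 0.08, adjusted p = 0.00120). Each of these decreases was larger in size than that of Syce1, the lowest member.

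The highest of the related genes were Rad51ap2, Six6os1 and Rad9b. Rad51ap2 was at 30.2, 31.8 and 36.1 CPM in WT and at 44.0, 48.5 and 44.6 CPM in Trf2-/- (0.49, SE 0.08, adjusted p = 0.00208). Six6os1, a central element gene listed as 4930447C04Rik, was at 107, 96.2 and 104 CPM against 136, 120 and 138 CPM (0.35, SE 0.07, adjusted p = 0.00437). Its rise stood beside those of Sycp1 and Tex12 and opposite to the fall of Syce1, and the call of Tex12 was lost in 10 of 12 alternative settings. The central element genes Syce2 (0.00) and Syce3 (0.02, adjusted p = 0.852) did not pass. Rad9b, a subunit of a checkpoint clamp, was at 77.6, 72.0 and 71.5 CPM against 92.3, 88.5 and 91.4 CPM (0.30, SE 0.05, adjusted p = 0.00294).

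The members' small changes stood beside differences in later germ cell markers, many of them larger. Of 10 pachytene spermatocyte markers 10 fell, with a median of -0.52 on the log2 scale. Their summed level was 6710 to 7205 CPM in WT and 4353 to 5327 CPM in Trf2-/-. Single pachytene markers ran from -1.63 for Ccna1 to -0.17 for Hspa2. Hspa2, Piwil1 (-0.25), Nek2 (-0.35) and Clgn (-0.37) lay inside the members' span of -0.46 to 0.36. Of 8 tested round spermatid markers 6 fell, with a median of -1.49. The sum over the 10 found was 76.1 to 79.1 CPM in WT against 33.3 to 48.3 CPM in Trf2-/-. All 4 tested elongating spermatid markers fell, with a median of -3.05, and the 8 found summed to 0.948 to 1.63 CPM in Trf2-/-. Few markers of earlier germ cells passed. Spermatogonial markers had a median of 0.08 with 1 of 10 higher (268 to 281 CPM in WT, 270 to 344 CPM in Trf2-/-), and 5 markers of leptotene to zygotene cells had a median of -0.02 with 1 lower (901 to 950 CPM against 906 to 962 CPM). Among somatic lists, Sertoli markers had a median of 0.19, Leydig markers 0.22 with 1 of 7 higher, peritubular markers 0.22 with 1 of 5 higher, and macrophage markers 0.59 with 4 of 7 higher. The macrophage sum was 162 to 187 CPM in WT and 186 to 366 CPM in Trf2-/-. The top of the Trf2-/- range came from mouse 1, which had the highest value of every tested macrophage marker. Lyz2 was at 104 CPM in it against 37.3 and 37.9 CPM in Trf2-/- mice 2 and 3. The part of these lists in the members' changes was not tested.

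**Figure D5:**
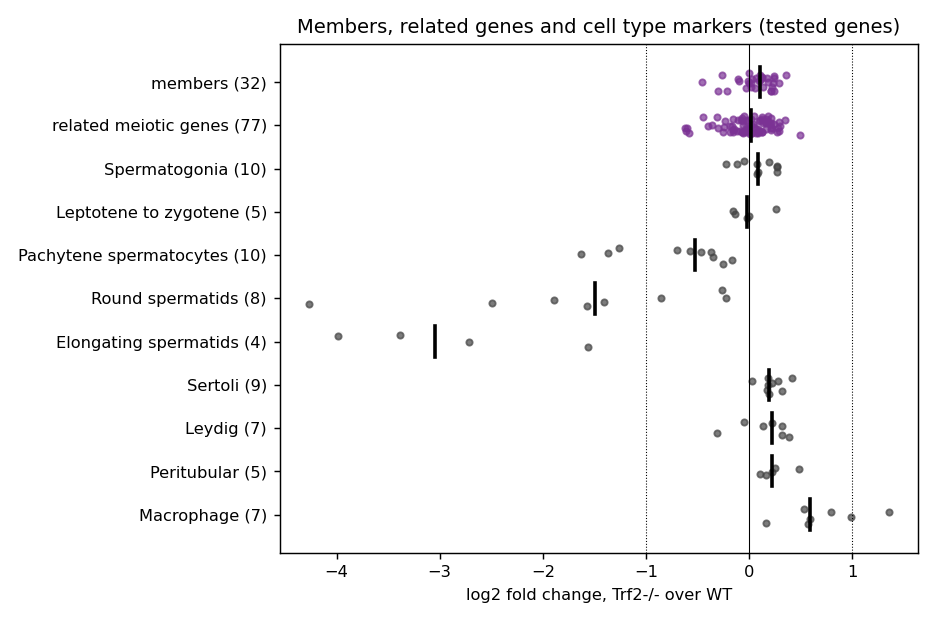
The log2 fold change of each tested gene, Trf2-/- over WT, for the members, the related meiotic genes and the marker lists, with the number of tested genes in brackets, 1 point a gene and a black line at the median. The members' median is 0.11 and the related genes' 0.02, while round spermatid markers have a median of -1.49 and elongating spermatid markers of -3.05.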

How the data were processed

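Total RNA from whole testes of 3 WT and 3 Trf2-/- mice was sequenced in stranded libraries. The submitters' processing notes name CASAVA 1.8.2, TopHat2 2.0.10, Bowtie2 2.1.0, HTSeq 0.5.4p3, DESeq2 1.0.19 and the build mm9. The strand setting, the annotation release and the treatment of reads shared between copies are not given in the sources used here, so genes that overlap on opposite strands may share reads. The authors deposited raw counts per gene, which were used as they are, and 12 columns of normalized values, left unused here. Columns were assigned by genotype and replicate number in their names. Differences were tested with edgeR 4.0.16 (R 4.3.3): filterByExpr, TMM factors, glmQLFit and glmQLFTest, with Benjamini-Hochberg adjustment over 16924 genes holding 99.9% of the counts. The standard error is the size of the log2 fold change over the root of F. CPM uses TMM-scaled library sizes, and levels between genes use CPM per kilobase of deposited gene length. The common biological coefficient of variation was 0.0838. The edgeR p-values and the intervals of the fold changes rest on the same fit, which takes in the spread between these mice. An exact permutation test of 3 against 3 mice cannot give a p under 0.1. Replicates differed by more than sampling noise (chi-square at least 3.32 times its degrees of freedom).

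All members found were named. Of the related genes, the 3 lowest and 3 highest past the threshold were named, with Smc1a, Rad21, Stag1 and Stag2. Syce3 and the related genes in the closing section were chosen after their values were seen. A further related gene is not reported here. The members, lists and motifs were chosen with earlier results of these data known. Alternatives were DESeq2 (1.42.0) and its size factors, library size alone, a count filter of 10 in all mice or of 1 in total, a replicate block, the omission of single mice, and an adjusted p of 0.01. The code was tested on simulated counts.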

Additional observations from a re-analysis of the deposited data

How the results depend on the processing

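Syce1, Sgol2, Sycp3, Sycp1 and Msh4 kept their direction and passed an adjusted p of 0.05 in all 12 alternatives that refit the data. At 0.01 they were the 2 lower and 3 higher members left. At that limit 12 related genes were lower and 4 higher, and of all 16924 tested genes 2334 were lower and 481 higher. The calls of Mei1, Psmc3ip, Hormad1 and Tex12 were lost in at least 1 alternative. DESeq2 gave 3 lower and 6 higher members, its size factors in edgeR 4 and 4, and no filter beyond 1 count 3 and 7. With library size alone, 2 members were lower and 14 higher with a median log2 fold change of 0.20, 10 related genes were lower and 23 higher, and 4267 of all genes were higher instead of 1889, as the median of all genes moved from 0.04 to 0.13. The signs of Syce2, Spo11 and Rad51c (0.09 each) and Hfm1 (0.06) turned there. With at least 10 counts in every mouse, 497 genes in all passed 2-fold in place of 830, with 15525 genes tested in place of 16924. Without the filter Spo11 was at 0.00 with its sign turned.

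Leaving out 1 mouse left 2 to 4 members lower, 3 to 4 higher, and a median log2 fold change of 0.05 to 0.12. The count of related genes higher ranged from 4 to 10 and of all genes higher from 797 to 1804. Without WT mouse 1 or WT mouse 2, 2 members were lower and 3 higher, and without WT mouse 3, 3 and 3. Related genes higher numbered 4, 6 and 6 without WT mice 1, 2 and 3. All genes higher numbered 818, 797 and 1192 without WT mice 1, 2 and 3, and 1172 without Trf2-/- mouse 1. Values that turned sign with 1 mouse left out were those of uncalled members: Syce2 (-0.10 to 0.05), Rec8 (-0.15 to 0.27), Rad21l (-0.06 to 0.15), Spo11 (-0.04 to 0.03), Dmc1 (-0.04 to 0.12), Rad51c (-0.05 to 0.04), Brca2 (0.00 to 0.04) and Msh5 (-0.02 to 0.08). Same-numbered mice did not deviate together (correlations of -0.10, -0.03 and -0.10). This gave no sign of pairing, but with 3 mice in each genotype it cannot show that they are unpaired. With the replicate block, 3 members were lower and 6 higher, with a median of 0.09, as Tex12, Mei1 and Stag2 lost their calls and Tex15 and Tex11 passed. For lost calls where no value shows the cause, the cause was not tested. The precision is limited by 3 mice in each genotype and, for Mei4 and Rnf212, by 81 to 146 counts per mouse.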

Other observations

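Related genes that act beside the members moved in both directions. Among regulators of cohesin, Nipbl, which loads cohesin on chromosomes, was at 811, 781 and 867 CPM in WT and at 576, 578 and 490 CPM in Trf2-/- (log2 fold change -0.58, SE 0.07, adjusted p = 0.000761). Wapal, which releases cohesin, was at 437, 425 and 427 CPM against 379, 379 and 372 CPM (-0.19, SE 0.04, adjusted p = 0.00705). Esco2, which acetylates cohesin, was higher, at 71.7, 81.5 and 77.1 CPM against 84.2, 87.7 and 96.3 CPM (0.22, SE 0.07, adjusted p = 0.0391). Pds5a (0.11, adjusted p = 0.166) and Pds5b (0.18, adjusted p = 0.0616) did not pass.

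Among genes that tie telomeres to the nuclear envelope, Terb1 (listed as Ccdc79) was at 90.2, 89.0 and 89.6 CPM against 65.0, 69.0 and 62.6 CPM (-0.45, SE 0.05, adjusted p = 0.000611). Kash5 (listed as Ccdc155) fell by 0.19 on the log2 scale (adjusted p = 0.00846), Sun1 by 0.17 (adjusted p = 0.0250) and Spdya by 0.24 (adjusted p = 0.0275). Cdk2 was at -0.06 (adjusted p = 0.291), and Majin had the opposite sign, at 0.18 (adjusted p = 0.0535). Of the 3 subunits of the complex that senses break ends, Nbn (-0.40, adjusted p = 0.00119) and Mre11a (-0.25, adjusted p = 0.00823) were lower, and Rad50 was at 0.04 (adjusted p = 0.715). The kinase gene Atm was higher (0.21, adjusted p = 0.0166) and Atr lower (-0.16, adjusted p = 0.0237). These groups were put together after the values were seen and were not tested as groups.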
